A study of Mus musculus with 9 samples.

Results

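The genes described here are the secreted and membrane-bound metalloproteases of the matrix metalloprotease (Mmp), Adam, Adamts and Adamts-like (Adamtsl) families and their tissue inhibitors (Timp), in mouse mammary tumour cells with and without a Wnt inhibitor. They were chosen by gene name, with earlier results of these data known. The rule took every non-control probe whose gene name in the Fzd8-CRD scanner files began with Mmp, Adam, Adamts, Adamtsl or Timp and a digit. This gave 131 of the 41174 probes on the array, for 77 genes: 29 Adam, 18 Adamts, 5 Adamtsl, 21 Mmp and 4 Timp genes. RNA was measured on 9 two-colour Agilent arrays, 5 labelled Fzd8-CRD and 4 labelled control. Fzd8-CRD is the cysteine-rich extracellular domain of the Wnt receptor Frizzled 8 in soluble form, used to trap Wnt proteins. All cells came from MMTV-Wnt-1 and MMTV-Her2 tumours, in which the mammary tumour virus promoter drives the transgene mainly in mammary epithelium, and had been sorted as negative for green fluorescent protein. Every array carries both tumour models in its labels, so the models could not be separated, and strain, age and dose are not given in the sources used here. The treatment protocol names the inhibitor for the control arrays too, so the groups rest on the treatment label alone and what the controls received is not known here.

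Mmp enzymes cleave collagens, proteoglycans and other matrix proteins, and many are made as inactive precursors that other proteases open. Adam enzymes sit in the cell membrane and release growth factors, cytokines and receptor domains from the cell surface, while Adamts enzymes are secreted and process proteoglycans, procollagens and fibrillin-rich matrix. Timp proteins block the active site of Mmp and of some Adam and Adamts enzymes. In the mammary gland these families take part in duct growth and in the remodelling after lactation, and tumour cells and the surrounding stroma can both make them.

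Values are log2 ratios of the tumour cell RNA (Cy5) to a pooled reference RNA (Cy3), so a gene's ratio is its level relative to that reference and ratios of different genes are not compared. A difference is the mean of the Fzd8-CRD arrays minus the mean of the control arrays, with the standard error (SE) of the limma fit, and a gene passed at a Benjamini-Hochberg adjusted p under 0.05 over all 18273 genes tested. All 4 control arrays lay on 1 slide and the 5 Fzd8-CRD arrays on 4 others, which were scanned on other days, so slide, scan day and treatment cannot be told apart by a comparison within a slide. The arrays also differed in how much was detected: each Fzd8-CRD array had 52.5% to 60.0% of its probes well above background in Cy5 and each control array 63.8% to 70.8%, and in Cy3 the reference gave 58.7% to 65.7% and 71.8% to 74.9%. Control replicate 2 stood apart: its correlation across all genes with the other 8 arrays was 0.62 to 0.73, whereas among the remaining controls it was 0.90 to 0.98. All 12 luminal markers and 10 of 11 basal markers were above background on all 9 arrays, as the mammary label implies, but so were 10 of 12 fibroblast and 8 of 11 macrophage markers, and all 14 endothelial markers were lower in the Fzd8-CRD arrays. Luminal markers had a median difference of -0.66, with 10 of 12 negative and 3 passing as lower, where 7.62% of all genes fell. Basal markers had a median of 0.80, with 1 of 11 negative and 4 passing as higher, where 6.37% of all genes rose. The part of these epithelial markers in the values of Mmp7 and the other members was not tested. In RNA from many cells, fewer cells of a type and less RNA per cell cannot be told apart.

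Of the 77 genes, 53 had a probe well above background on at least 4 arrays and were tested, and 24 did not. The tested genes comprised 17 Adam, 13 Adamts, 4 Adamtsl, 15 Mmp and 4 Timp genes. Of the 53, 4 passed (7.55%), where 14.0% of all genes tested did. The order of these shares turned with the scanner's own log ratio (18.9% of members against 14.9% of all genes) and with the deposited table (18.9% against 14.7%), and narrowly with median centring and with the closest pairs of arrays averaged, where 2 and 1 members were called, so neither a low nor a high share is read from them. Adamts10 and Adam9 rose, where 6.37% of all genes rose, and Mmp7 and Adam18 fell, where 7.62% of all genes fell. The arrays of the groups did not overlap for 6 members (11.3%), against 19.5% of all genes. The median difference was -0.086 over the tested members and -0.074 over all genes. Of the members 35 had a negative and 18 a positive difference, against 10454 and 7819 of all genes. Without control replicate 2, negative and positive differences numbered 26 and 27, and 6 of the 9 genes whose sign turned were Mmp genes. That array gave the highest ratio of the 4 controls for 30 of the 53 members (56.6%), against 37.3% of all genes.

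**Figure D1:**
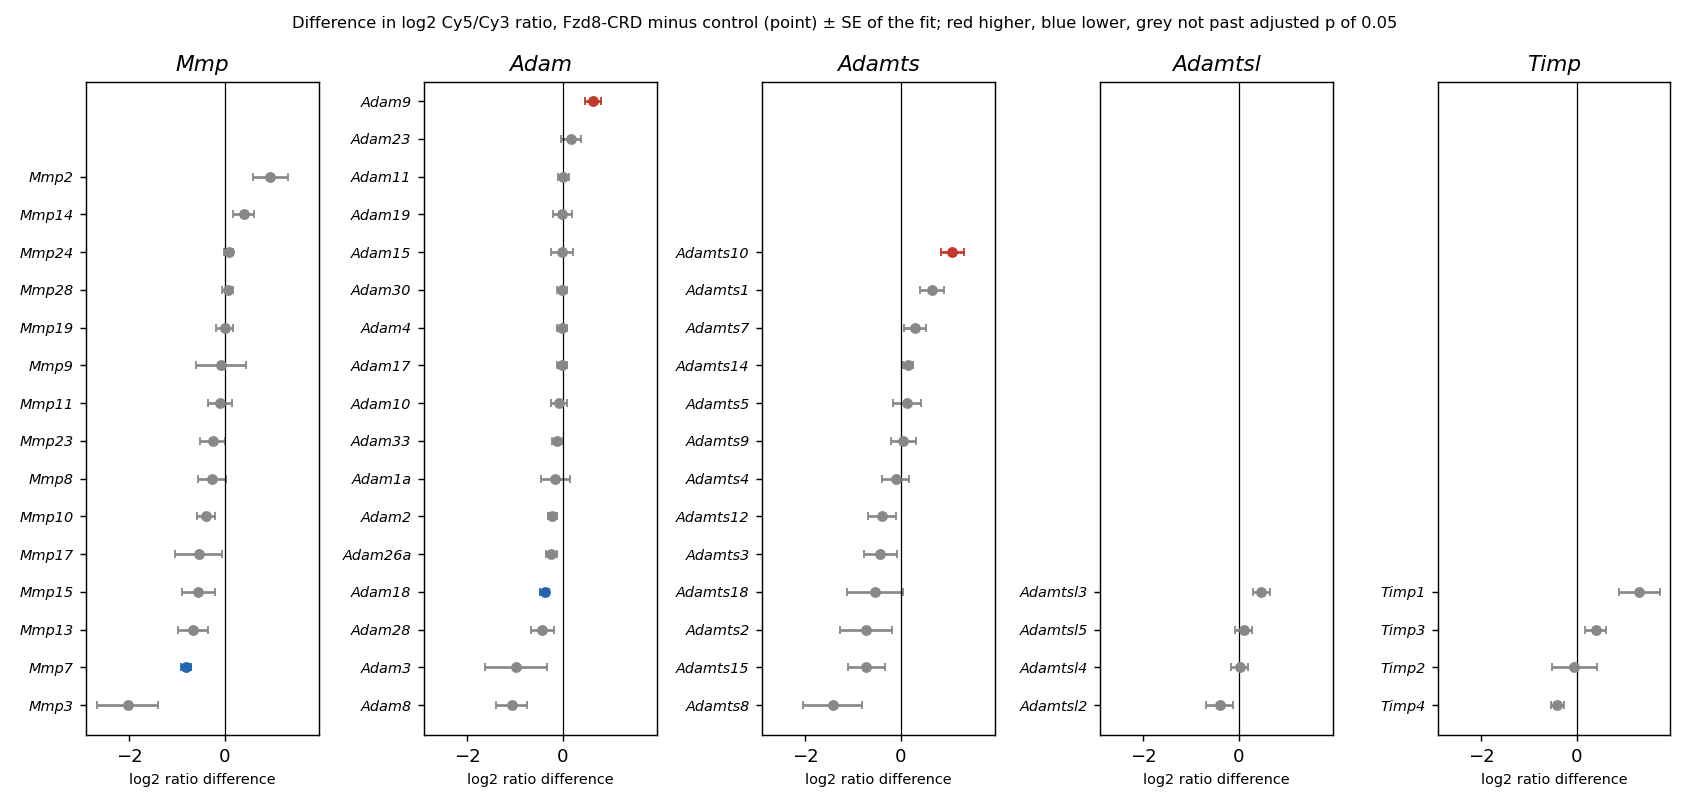
Difference in log2 Cy5/Cy3 ratio (Fzd8-CRD minus control, horizontal axis) for the 53 tested genes in 5 subfamily panels, with bars for the SE of the fit. Adamts10 and Adam9 (red) passed as higher, Mmp7 and Adam18 (blue) as lower, and the 49 grey genes did not pass, Mmp3 among them in spite of the difference of -2.04.

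Mmp7 (matrilysin) is a small secreted Mmp that lacks the hemopexin domain of its relatives, is made by glandular epithelium and is a known target of Wnt signalling in intestinal tumours. It was represented by 1 probe, at chr9:7697311-7697370 on the plus strand of mm8, whose sequence is shown because it is the only readout of the gene.
Mmp7 probe: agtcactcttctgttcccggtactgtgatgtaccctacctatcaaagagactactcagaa
The log2 ratios of Mmp7 were 0.12, -0.02, 0.18, 0.04 and -0.01 on the Fzd8-CRD arrays and 1.08, 0.81, 0.81 and 0.79 on the control arrays. Every control array lay above every Fzd8-CRD array, and control replicate 2 was no exception. The difference was -0.81 (SE 0.11, adjusted p = 0.00438). The probe was well above background on all 4 control arrays and on none of the 5 Fzd8-CRD arrays, so it was tested only through the group where it is high, and the Fzd8-CRD level is not measured. With loess within arrays and mean intensities set to a common distribution, the Cy5 means were 7.06 and 6.43 on the log2 scale, and the fall was at least 1.53-fold on that scale. With each dye taken alone the Cy5 signal was lower by 0.49, less than that bound, and the reference signal of this probe differed by 0.0048, so the size of the fall depends on the normalization. Mmp7 passed with each of the 9 arrays left out in turn, with differences from -0.84 to -0.74, but other processing moved the value further, to -1.36 with a background offset of 16, -2.57 with the deposited table and -3.35 with the scanner's log ratio.

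In RefSeq's GRCm38.p6 table Mmp7 is the last of 8 member genes that lie within 427072 bases of chromosome 9, after Mmp13, Mmp12, Mmp3, Mmp1a, Mmp10, Mmp8 and Mmp20. Of these, 5 were tested, and their differences were -0.67 for the collagenase gene Mmp13, -2.04 for the stromelysin gene Mmp3, -0.40 for the stromelysin gene Mmp10, -0.27 for the neutrophil collagenase gene Mmp8 and -0.81 for Mmp7. Only Mmp7 passed. Mmp7 and Mmp10 were above background on the control arrays alone, and without control replicate 2 Mmp8 stood at 0.08 and Mmp10 at -0.19. Mmp8 was above background on only 2 Fzd8-CRD and 2 control arrays. Mmp8 and Mmp10 are named for their place in this row of genes, chosen after their values were seen.

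The 250 bases before the RefSeq start of Mmp7, Mmp3 and Mmp8 are printed here because they show how the start regions of neighbouring genes differ. Capitals mark matches to the AP-1 motif TGANTCA and the TATA motif TATAAA, searched on both strands. The windows are chr9:7691840-7692089, chr9:7445572-7445821 and chr9:7558179-7558428 of GRCm38.p6, all on the plus strand.
Mmp7: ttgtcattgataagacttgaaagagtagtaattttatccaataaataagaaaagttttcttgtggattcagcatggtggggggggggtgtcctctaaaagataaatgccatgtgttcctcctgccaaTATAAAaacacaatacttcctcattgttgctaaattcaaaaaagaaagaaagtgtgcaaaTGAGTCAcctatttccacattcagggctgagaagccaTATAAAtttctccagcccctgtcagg
Mmp3: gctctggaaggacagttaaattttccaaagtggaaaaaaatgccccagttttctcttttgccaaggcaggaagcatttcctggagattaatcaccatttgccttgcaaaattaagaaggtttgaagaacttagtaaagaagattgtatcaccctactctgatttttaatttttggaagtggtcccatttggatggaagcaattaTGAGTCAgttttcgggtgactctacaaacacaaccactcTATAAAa
Mmp8: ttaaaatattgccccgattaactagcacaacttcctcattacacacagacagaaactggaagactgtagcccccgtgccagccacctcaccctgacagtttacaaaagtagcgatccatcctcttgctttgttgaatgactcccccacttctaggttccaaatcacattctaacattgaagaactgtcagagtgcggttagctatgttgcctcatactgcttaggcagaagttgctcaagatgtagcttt
The AP-1 match began 63 bases before the start in Mmp7 and 46 in Mmp3, and was at 35 in Mmp13, 63 in Mmp10, 73 in Mmp1a and 95 in Mmp20, while the Mmp8 window held none. Mmp12 had a match, 44 bases before the start, in 1 of its 2 windows. A start region was given for 45 of the 77 member genes, in 50 windows. The AP-1 letters occurred in 10 of these 50 (20%), against 6.75% of 32851 windows of the same length over all genes. Apart from the chromosome 9 row of Mmp genes, only windows of Adam19, Adam25 and Adam29 held a match. No excess over the whole set is therefore read from this share. The Tcf/Lef letters CTTTGA, the core that Wnt-regulated factors bind, occurred in 6 (12%), against 13.8%, and TATAAA in 10 (20%), against 12.4%. Apart from the chromosome 9 row, TATAAA was in windows of Adam29, Adamts1, Adamtsl2 and Mmp21. The motif matches did not overlap one another. The Mmp7 window printed here held no Tcf/Lef letters, although the window of a later RefSeq start of Mmp7 held 1 match, 246 bases before that start. That later window begins just past the first start, so its match lies within the gene as transcribed from the first start. These are matches of letters and not measured binding.

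Mmp3 (stromelysin-1), a stromal enzyme that activates other Mmp precursors, had the largest difference of any member. Its log2 ratios were -1.59, -2.84, -2.76, -3.42 and -2.74 on the Fzd8-CRD arrays and -1.74, 1.41, -0.42 and -1.78 on the control arrays. Control replicate 2 was far above the rest, and Fzd8-CRD replicate 1 lay within the control range. The difference of -2.04 (SE 0.64, adjusted p = 0.0624) did not pass, and was -1.36 without control replicate 2. The reference signal of Mmp3 was itself 0.52 lower on the Fzd8-CRD slides. In Mmp13, which cleaves fibrillar collagen, the ratios ran from -1.27 to -0.26 on the Fzd8-CRD arrays and from -0.47 to 0.93 on the control arrays, again with control replicate 2 at the top, and the difference of -0.67 (SE 0.31, adjusted p = 0.167) did not pass. Mmp13, like each other gene named here that is not among the 24 genes the naming rule gave, was chosen after its value was seen.

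The gelatinases cleave basement membrane collagen. Mmp2 (gelatinase A), mainly a product of fibroblasts, had ratios of 1.14, 0.90, 0.67, 1.73 and 1.85 on the Fzd8-CRD arrays and -0.36, 1.34, 0.24 and -0.01 on the control arrays. Only control replicate 2 reached the Fzd8-CRD range. The difference was 0.95 (SE 0.37, adjusted p = 0.108), and without that array 1.30 (adjusted p = 0.0210), which passed. Mmp14, the membrane-type enzyme that activates the Mmp2 precursor, had a difference of 0.39 (SE 0.22, adjusted p = 0.258), with Fzd8-CRD ratios from 0.19 to 0.52 and control ratios from -0.75 to 0.42, and the other Mmp14 probe gave 0.0067. Of 12 fibroblast markers 2 passed, Thy1 and Fap, both lower, where 7.62% of all genes fell. The median difference was -1.06, but the 12 were divided. Of them 8 were negative, as were 10454 of all 18273 genes, and Fbln2 (1.01), Pdgfra (0.81), Postn (0.41) and Dcn (0.04) were positive like Mmp2. Taken relative to each gene's mean over the arrays, the median of the fibroblast markers was 1.22 on control replicate 2. On control replicates 1, 3 and 4 it was -1.01, 1.14 and 0.54. The part of the fibroblast markers in the Mmp2 value was not tested. Mmp9 (gelatinase B), often made by neutrophils and macrophages, had a difference of -0.08 (SE 0.52, adjusted p = 0.932). It was well above background on all 4 control arrays but on only 2 of the 5 Fzd8-CRD arrays. Most of the Fzd8-CRD values therefore lie near the floor. With all arrays, Cy5 taken alone was 0.47 lower in the Fzd8-CRD group. Its control ratios were -1.75, 0.91, -1.98 and -1.40, so that control replicate 2 alone stood above the Fzd8-CRD range of -1.48 to -0.90, and without it the difference was 0.58 (adjusted p = 0.0518). The median of the macrophage markers, taken relative to each gene's mean over the arrays, was 1.24 on that array and -0.02 to 0.21 on the other controls, and of the neutrophil markers 0.86 against -0.17 to 0.55. Lymphocyte markers stood at 2.05 on control replicate 2, against -0.22 to -0.03 on the other controls, and erythrocyte markers at 5.12, against 0.68 to 1.54. Of the 4 erythrocyte markers tested 3 fell in the Fzd8-CRD arrays, where 7.62% of all genes fell, with a median difference of -3.65. Only 1 of these 4 was above background on all arrays, as were 3 of 12 lymphocyte and 4 of 7 neutrophil markers. The part of these cell types in the Mmp9 value was not tested.

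Taken by role, the 3 stromelysins and the 2 collagenases did not pass in limma. Of these, 1 (Mmp3) had an unadjusted p under 0.05, as did 5811 of all 18273 genes. The 4 membrane-type Mmp genes divided, 2 positive and 2 negative. The median difference of the 15 Mmp genes was -0.26, but 0.074 without control replicate 2 and 0.06 when limma weighted the arrays by their quality. No direction is therefore given for the family.

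**Figure D2:**
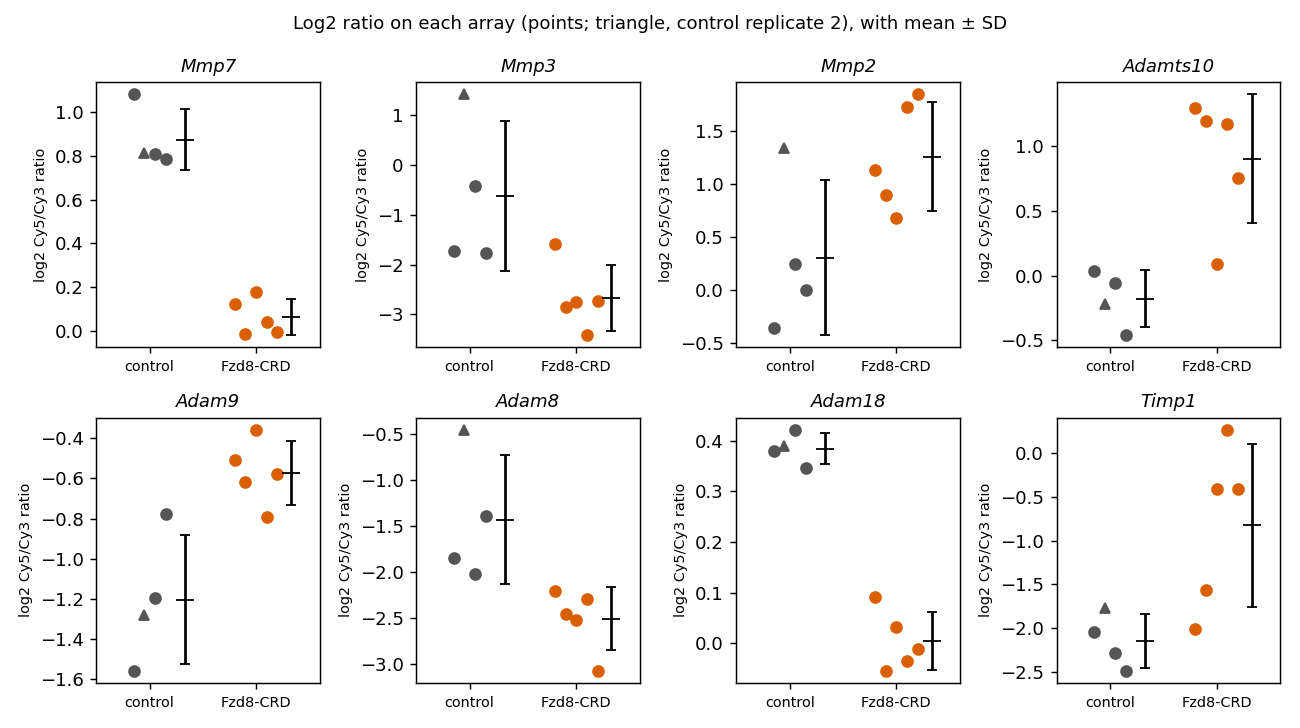
Log2 Cy5/Cy3 ratio (vertical axis, scaled separately in each panel) of 8 member genes on each of the 4 control (grey) and 5 Fzd8-CRD (orange) arrays, with mean ± SD. The groups are apart for Mmp7, Adamts10, Adam18 and Adam8, overlap narrowly for Adam9, and control replicate 2 (triangle) is the highest control for Mmp3, Mmp2, Adam8 and Timp1.

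Adamts10, a secreted protease that works on fibrillin microfibrils of the matrix, rose most among the members that passed. The ratios were 1.29, 1.20, 0.09, 1.18 and 0.76 on the Fzd8-CRD arrays and 0.04, -0.22, -0.06 and -0.46 on the control arrays. The groups did not overlap, although Fzd8-CRD replicate 3 came within 0.1 of the highest control. The difference was 1.08 (SE 0.25, adjusted p = 0.0213). A second Adamts10 probe gave 0.74 and passed in the fit of single probes too, which made Adamts10 the only member called by 2 probes; over all kept probes 14.6% were called, and of the 77 kept member probes 6 (7.79%). That second probe lies at chr17:33156263-33157178 of mm8, a span of 916 bases for 60 bases of sequence, so it crosses at least 1 splice junction and reads spliced transcript.
Adamts10 probe: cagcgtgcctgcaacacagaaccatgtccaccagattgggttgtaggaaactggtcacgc
Adamts10 passed with 6 of the 9 arrays left out in turn, and the value ranged from 0.98 to 1.28. It did not pass without Fzd8-CRD replicate 1, control replicate 3 or control replicate 4.

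The proteoglycanase-type Adamts genes encode enzymes that cut versican and aggrecan. None of the 6 tested passed in limma. An unadjusted p under 0.05 was found for 2 of them, against 5811 of all 18273 genes, so nothing is read from that count. Adamts8 had the largest difference of the family, -1.43 (SE 0.62, adjusted p = 0.146), and its second probe gave -1.03. Its ratios were 4.50, 4.30, 6.27, 5.66 and 2.93 on the Fzd8-CRD arrays and 7.08, 6.04, 5.90 and 5.61 on the control arrays. The Fzd8-CRD arrays were spread over more than 3 log2 units, and 2 of them lay within the control range. Adamts15 had ratios of 4.43, 4.22, 3.70, 3.05 and 2.39 against 4.68, 4.10, 4.16 and 4.19, and a difference of -0.72 (SE 0.39, adjusted p = 0.231). Both genes turned positive when the scanner's own log ratio was used (0.79 and 0.29) or when the arrays were scaled to each other (0.77 and 0.82), so their direction is not settled. Adamts1 had ratios from 2.04 to 2.38 on the Fzd8-CRD arrays and of 0.74, 1.33, 1.92 and 2.11 on the control arrays, and a difference of 0.65 (SE 0.25, adjusted p = 0.114), but its second probe gave -0.039. The median difference of the 13 Adamts genes was -0.10, and 0.50 with the scanner's log ratio or the deposited table, 0.79 with scaled arrays and 0.26 in Cy5 alone.

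The Adamts-like proteins have the matrix-binding part of Adamts enzymes but no protease domain. None of the 4 tested passed in limma, and 1 had an unadjusted p under 0.05, as did 5811 of all 18273 genes. Adamtsl3 had ratios of -0.68, -0.62, -0.55, -0.76 and -0.11 on the Fzd8-CRD arrays and -1.31, -0.65, -1.06 and -1.04 on the control arrays. Control replicate 2 was the only control within the Fzd8-CRD range, and the difference of 0.47 (SE 0.17, adjusted p = 0.0992) became 0.59 (adjusted p = 0.0393) without it. Adamtsl2 gave -0.40 (SE 0.27), with control replicate 2 at 1.49, and -0.09 without that array. The signals of Adamtsl3 and Adamtsl2 were near background. Adamtsl3 was above it on all 5 Fzd8-CRD but only 3 control arrays, and Adamtsl2 on only 2 Fzd8-CRD and all 4 control arrays. Adamtsl4 and Adamtsl5 gave 0.02 and 0.10, below their SE of 0.18 each (adjusted p = 0.953 and 0.718). Both turned negative with the scanner's log ratio or with scaled arrays.

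Adam9, a widely expressed membrane protease that can shed growth factor precursors, rose. The ratios were -0.51, -0.62, -0.36, -0.79 and -0.58 on the Fzd8-CRD arrays and -1.56, -1.28, -1.20 and -0.78 on the control arrays. Control replicate 4 reached the lowest Fzd8-CRD array and the other 3 controls lay below all 5. The difference was 0.63 (SE 0.17, adjusted p = 0.0345). It passed only without Fzd8-CRD replicate 4 or control replicate 4, of the 9 arrays left out in turn, although the value stayed between 0.52 and 0.78.

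Adam8, a protease of myeloid cells that is also made by aggressive breast tumours, was just outside the threshold. The ratios were -2.20, -2.45, -2.52, -2.29 and -3.07 on the Fzd8-CRD arrays and -1.85, -0.46, -2.02 and -1.39 on the control arrays. The groups did not overlap. The difference was -1.07 (SE 0.31, adjusted p = 0.0503), and -0.75 without control replicate 2 (adjusted p = 0.0505). In the fit of single probes the only Adam8 probe had an adjusted p of 0.0480. That fit uses the same values among 26835 probes, so it is not a second measurement. Among the 11 macrophage markers 1 passed, Mrc1, which was lower, where 7.62% of all genes fell. Negative differences were found for 10 of the 11, and for 10454 of all 18273 genes. Mrc1 was above background on all 4 control arrays but on only 1 Fzd8-CRD array. The part of these markers in the Adam8 value was not tested.

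Adam10 and Adam17, the main sheddases of Notch receptors and of tumour necrosis factor and EGF receptor ligands, had differences smaller than their SE. Adam10 had a difference of -0.09 (SE 0.16, adjusted p = 0.745). Adam17 had ratios of -0.40 to -0.09 on the Fzd8-CRD arrays and -0.30 to -0.20 on the control arrays, a difference of -0.02 (SE 0.10, adjusted p = 0.914). For Adam17 the 2 dyes moved together: Cy5 alone was 0.50 lower in the Fzd8-CRD arrays and passed as such (adjusted p = 0.0154), but the reference in Cy3 was 0.56 lower on the same slides. Adam15 gave -0.01 (SE 0.24, adjusted p = 0.971).

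Adam18 is one of the Adam genes expressed mainly in testis and epididymis, where several act in sperm and egg binding. Its ratios were 0.09, -0.05, 0.03, -0.04 and -0.01 on the Fzd8-CRD arrays and 0.38, 0.39, 0.42 and 0.35 on the control arrays. The groups were well apart, and the difference was -0.38 (SE 0.09, adjusted p = 0.0267). The signal was low: the probe was above background on no Fzd8-CRD array, so Adam18 was tested only through the group where it is high. The bound is at least 1.29-fold on the scale used for that of Mmp7, but Cy5 taken alone was lower by only 0.31 (log2), less than that bound. Adam18 passed with 3 of the 9 arrays left out in turn. Of the 17 genes of this testis-type group 7 were tested and 10 had no kept probe. Adam2, Adam3, Adam18 and Adam26a entered the test through the control arrays alone, and Adam4 and Adam30 were above background on 1 Fzd8-CRD array each, so no direction is read from the group. Adam4 and Adam30 passed as higher with the scanner's log ratio and with the deposited table. Adam3, a sperm surface protein, was at 3.44 on control replicate 2 and between -0.15 and 0.16 on the other 8 arrays. Its difference of -0.97 (SE 0.64, adjusted p = 0.319) was -0.13 without that array. The second Adam1a probe showed the same array apart, at 3.13 on control replicate 2 and between -0.09 and 0.10 elsewhere, although that probe bears the name Adam1b in the scanner files of the control arrays.

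Among the inhibitors, Timp1, which is secreted and induced in many wounded or inflamed tissues, had the largest difference. Its ratios were -2.01, -1.56, -0.42, 0.26 and -0.41 on the Fzd8-CRD arrays and -2.04, -1.77, -2.28 and -2.48 on the control arrays. Fzd8-CRD replicates 3, 4 and 5 lay more than 1 log2 unit above every control, replicate 2 was just above the highest control, and replicate 1 lay within the control range. The difference was 1.31 (SE 0.43, adjusted p = 0.0702), which did not pass, and 1.61 without Fzd8-CRD replicate 1, which did (adjusted p = 0.0341). The 2 Timp1 probes read different places of the transcript, chrX:20029738-20029797 and chrX:20031508-20031566 of mm8, and are printed for that reason.
Timp1 first probe: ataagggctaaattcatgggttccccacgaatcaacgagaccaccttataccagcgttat
Timp1 second probe: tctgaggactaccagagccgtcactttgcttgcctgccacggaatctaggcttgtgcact
The second, brighter probe is the one given above. The first gave 0.69 in the same direction, with the same 3 Fzd8-CRD arrays highest (-0.34, 0.07 and -0.12).

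Timp4 had ratios of -0.02, 0.10, 0.02, -0.21 and -0.02 on the Fzd8-CRD arrays and 0.67, 0.25, 0.15 and 0.44 on the control arrays. The groups did not overlap, but the difference of -0.40 (SE 0.13, adjusted p = 0.0729) did not pass. The signal of Timp4 was low, above background on only 4 Fzd8-CRD arrays and on all 4 control arrays. Timp3, which binds to the matrix and also blocks Adam17, gave 0.40 (SE 0.21, adjusted p = 0.231). For Timp3 both dyes were lower in the Fzd8-CRD arrays, Cy5 alone by 0.51 and Cy3 by 0.92, so that Cy5 alone has the opposite sign to the ratio. Timp2, which takes part in the activation of the Mmp2 precursor by Mmp14, gave -0.05 (SE 0.48, adjusted p = 0.955), with ratios from -1.44 to 0.15 on the Fzd8-CRD arrays and from -1.75 to 0.50 on the control arrays, and its Cy3 signal was 0.73 lower. Mmp3, Adam17, Timp2 and Timp3 were the 4 members, of 53, whose reference signal differed by more than 0.5, against 1704 of all genes. The median of the 4 inhibitor genes was 0.17, and -0.51 in Cy5 alone.

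**Figure D3:**
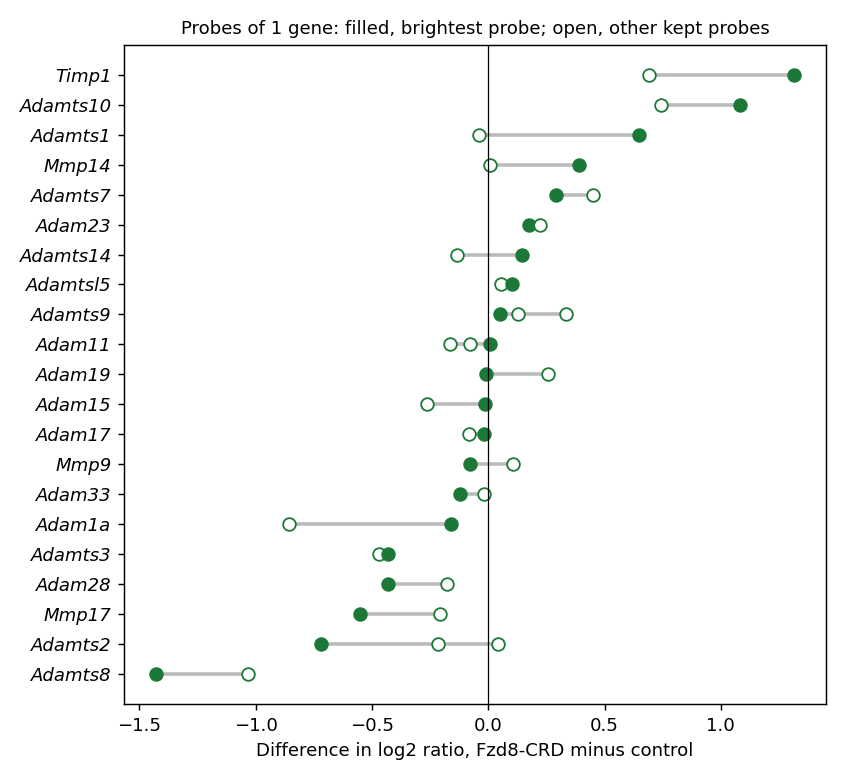
Differences in log2 ratio (Fzd8-CRD minus control) of all kept probes for the 21 genes with at least 2, the brightest filled and the others open. For 15 genes the probes share a sign, as for Timp1, Adamts10 and Adamts8, and for 6 they lie on both sides of 0, as for Adamts1 and Mmp9.

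Fewer members were detected on the Fzd8-CRD arrays, as was true of all probes. Of the 131 member probes, 47 to 64 were well above background on the Fzd8-CRD arrays and 74 to 91 on the control arrays, while 36 were above background on no array and 44 on all 9. Among the tested genes, 7 members (13.2%) were above background on all 4 control arrays and no Fzd8-CRD array, against 5.93% of all genes, and 0 members showed the reverse, against 10 of all genes. The 7 were Adam2, Adam3, Adam18, Adam26a, Mmp7, Mmp10 and Mmp19. The Cy3 reference was also detected less often on the Fzd8-CRD slides, with 63 to 78 member probes against 86 to 92. The filter of 4 arrays can be met by the 4 control arrays alone, so a count of such genes among those tested is a description. On the scale used for the bound of Mmp7, the bounds on Cy5 were at least 2.50-fold for Adam3, 1.39-fold for Mmp10, 1.35-fold for Adam26a and 1.34-fold for Adam2 (log2 1.32, 0.48, 0.43 and 0.42), none of which passed, and none could be given for Mmp19. Cy5 taken alone differed by less than these bounds, by -1.24, -0.42, -0.37 and -0.34, so the bounds hold for that normalization only. Control replicate 2 carried much of the Adam3 value: its Cy5 taken alone was 10.03, against 6.95 to 7.11 on the other controls. For Mmp10 that array was at 7.41, against 6.73 to 6.90. The 24 genes with no kept probe included the metalloelastase gene Mmp12, the collagenase gene Mmp1a, Adam12 and the von Willebrand factor protease gene Adamts13; at this signal their RNA was not detectable in enough arrays for a test.

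**Figure D4:**
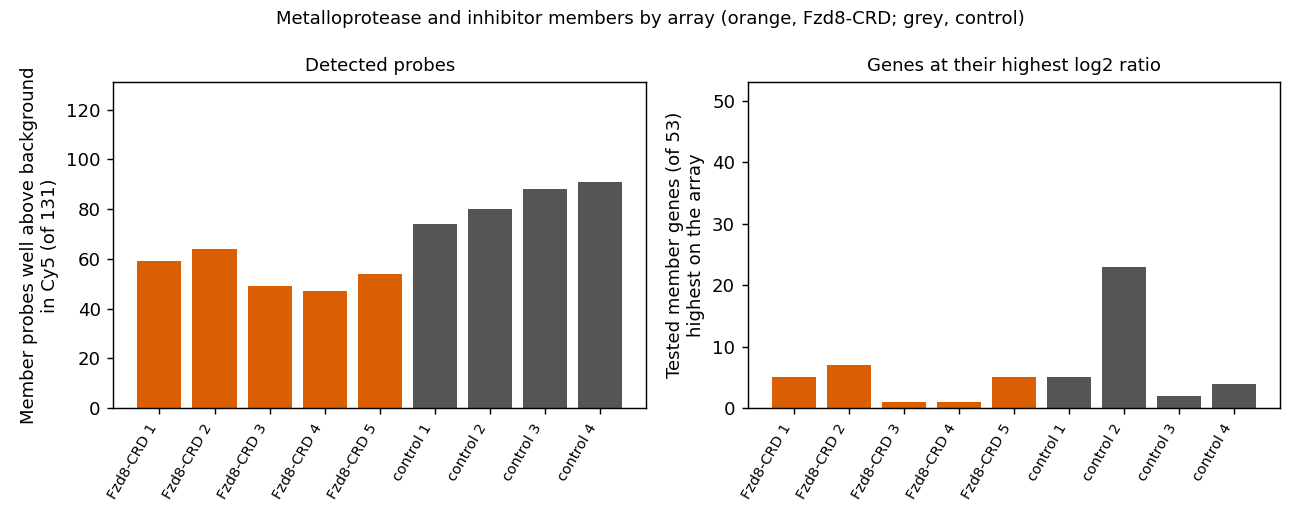
Left, member probes well above background in Cy5 on each array (of 131): 47 to 64 on the 5 Fzd8-CRD arrays (orange) and 74 to 91 on the 4 control arrays (grey). Right, tested member genes whose highest log2 ratio fell on each array (of 53), of which control replicate 2 had 23.

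The proteases and factors that act with these families were followed in lists, whose counts are to be read against the 6.37% of all genes that rose and the 7.62% that fell. In the plasminogen activator system, whose product plasmin opens Mmp precursors, 1 of 7 tested genes fell. That gene was Plau, the urokinase gene, at -0.22 ± 0.24 (SD, n = 5) on the Fzd8-CRD arrays and 1.50 ± 0.32 (SD, n = 4) on the control arrays, a difference of -1.72 (SE 0.18, adjusted p = 0.00198). The receptor gene Plaur and the inhibitor gene Serpine2 had differences of -0.85 and -0.82 that did not pass (adjusted p = 0.197 and 0.179). Of 15 regulators, 2 rose and 2 fell, where 14.0% of all genes changed. The proprotein convertases, which cut the propeptide from membrane-type Mmp and Adam enzymes, went both ways: Pcsk7 rose by 0.70 (SE 0.13, adjusted p = 0.0121) and Furin by 0.55 (SE 0.13, adjusted p = 0.0268), and Pcsk6 fell by 1.48 (SE 0.40, adjusted p = 0.0382). Bsg, the surface protein basigin that induces Mmp genes in neighbouring cells, fell by 0.98 (SE 0.24, adjusted p = 0.0280).

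Of 9 other metalloproteases tested, Bmp1, the procollagen C-proteinase, rose by 0.77 (SE 0.21, adjusted p = 0.0382), and the aminopeptidase gene Enpep was lower by 0.81 (SE 0.12, adjusted p = 0.00551). Enpep was above background on all 4 control arrays and on no Fzd8-CRD array. It was therefore tested only through the group where it is high, and its Fzd8-CRD level is not measured. Of the 28 substrates of Adam10 and Adam17 tested, 3 rose and 1 fell, a share close to the 14.0% of all genes that changed, so nothing is read from the count. Their median difference was -0.24. Tnfrsf1a, the tumour necrosis factor receptor gene, rose by 0.82 (SE 0.15, adjusted p = 0.00956), and the adhesion molecule gene Vcam1 fell by 1.26 (SE 0.32, adjusted p = 0.0296). The other 2 that rose were Egf and Cdh2, of which Egf was above background on only 2 Fzd8-CRD and 3 control arrays. Of the 20 matrix substrates tested, 2 rose, the elastin gene Eln and Col4a1, a basement membrane collagen gene (1.19, SE 0.34, adjusted p = 0.0466), and 2 fell, the cartilage collagen gene Col2a1 (-1.69, SE 0.39, adjusted p = 0.0219) and Vwf (-1.76, SE 0.39, adjusted p = 0.0193). Vwf, the substrate of Adamts13, and Vcam1 are made by endothelial cells, whose 14 markers fell with a median of -2.08; their part in the 2 values was not tested.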

How the data were processed

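RNA of sorted tumour cells (Cy5) was hybridised with a pooled reference RNA (Cy3), per the labels, which disagree on what the reference was (a universal mouse RNA, a pool of strains or a universal human RNA). Per the file headers, Agilent Feature Extraction 9.5.3.1 wrote a linear intensity per spot and dye. Per the file headers too, that program subtracted background and normalized the dyes to make its log10 ratio. A linear ratio per array fills the table the authors deposited for the series, and its log2 values correlated with the scanner's log ratio at 0.999995 or more for all 9 arrays, which fixes its scale and its direction (Cy5 over Cy3). Column medians of that ratio lay between 0.833 and 0.954.

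Here the normexp method (offset 50) corrected the background, and loess normalized the ratios of each array, in limma 3.58.1 (R 4.3.3; data.table package, 1.17.8), with the 1639 control spots of 45018 given no weight and 1229 outlier spots left out. No between-array scaling was applied. Spots of a probe were averaged. A probe was kept where at least 4 arrays had it well above background in Cy5 (26835 probes, 65.2%, and 58.8% of the member probes), and a gene was represented by its brightest kept probe. Because of the offset, differences of dim genes are understated. Groups came from the treatment label, and were compared with limma's linear model, without covariates; the method was checked on simulated data. The 5 and 4 arrays are biological replicates per the series' design text, and their number limits the precision. A bound compares the brighter group's mean normalized Cy5 signal with, per dim array, the higher of its own signal and the lowest signal well above background; it holds for that normalization only, has no spread and is open to dye bias. Genes were named by rule: members that passed, the 3 brightest and 2 with the largest difference per subfamily, Adam10, Adam17, Mmp2, Mmp7, Mmp9, Mmp14 and all Timp genes, and up to 4 genes with the smallest p per list. Members and lists were chosen with earlier results of these data known. Promoter windows are RefSeq's (GRCm38.p6), probe sequences and mm8 coordinates are from the scanner files, and 2 probes under older names that map to Adamtsl genes were kept apart.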

Additional observations from a re-analysis of the deposited data

Results flagged for a closer look

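The ratios of the 24 named member genes were searched for an array far from the others of its group, in 48 groups of 4 or 5 arrays, where chance marks about 1 group in 20. The search marked 3. Adam3 was at 3.44 on control replicate 2, with the other controls near 0. Mmp7 was at 1.08 on control replicate 1, above the other 3 controls at 0.79 to 0.81, so that the control array farthest from its group was also the one farthest from the Fzd8-CRD arrays. Adamts15 was at 4.68 on control replicate 1, with the other controls at 4.10 to 4.19.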

How the results depend on the processing

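No paired analysis was possible because the labels carry no replicate numbers, and those used here follow accession order. Mmp7 stayed lower and past the threshold in all 22 alternatives that gave it a value (the filter for all 9 arrays removes it). The calls of Adamts10, Adam18 and Adam9 held in 19 of 23, 12 of 22 and 12 of 23 alternatives, and Adam8 and Mmp3 passed in 9 each. For the 4 called genes, 1 of these passes came from quantile normalization of mean intensity. That setting leaves the log2 ratios unchanged, so it repeats the main fit. The scanner's ratio and the deposited table hold closely correlated values but count as 2 alternatives. Members higher numbered 4 with the scanner's ratio, the deposited table or no filter on dim probes, 1 with median centring or scaling between arrays, 7 with array weights, 6 with slide as a random block (correlation within slides -0.17) and 0 with the closest pairs averaged. No slide held both groups, so the slide block cannot separate slide from treatment. Its counts, and its passes among those above, are a description only. Members lower numbered 4 with an offset of 16 or no background correction, 6 with the scanner's ratio or the deposited table, 5 with Cy5 alone or the slide block, 9 with array weights, and 1 with median centring, the filter for all 9 arrays or averaged pairs. The share of members called, with that of all genes in the same fit, was 11.3% against 13.3% (offset 16), 11.3% against 14.5% (no background correction), 18.9% against 14.9% (scanner's ratio), 18.9% against 14.7% (deposited table), 3.77% against 3.26% (median centring), 5.66% against 11.4% (scaling), 13.2% against 18.8% (Cy5 alone), 9.38% against 14.4% (filter for all 9 arrays), 7.79% against 11.1% (no filter), 30.2% against 37.7% (array weights), 20.8% against 30.0% (slide block) and 1.89% against 1.83% (averaged pairs). All genes changed numbered 595 with median centring, 3922 as single probes, 6893 with array weights, 5487 with the slide block and 334 with averaged pairs. Of the calls 45.5% were higher, against 56.4% with the scanner's ratio and 57.3% with the deposited table. With 1 array left out, members higher ranged from 0 to 3, members lower from 1 to 4 and all genes changed from 1278 to 3046. Without control replicate 3 only Mmp7 passed among the members. The Adam median was -0.032 without background correction, -0.28 with the scanner's ratio, 0.052 with the deposited table, -0.14 with scaling, -0.019 with the filter for all arrays, -0.036 without a filter, and -0.16 to -0.034 with 1 array left out. The Adamts median was 0.50 with the scanner's ratio or the deposited table and 0.79 with scaling, the Adamtsl median -0.24 with scaling, and the Timp median -0.51 in Cy5 alone. With array weights the difference of Mmp9 turned to 0.68 (adjusted p = 0.0475), although the gene was above background on only 2 Fzd8-CRD arrays. The causes were not tested. A signal near background limits Mmp7, Adam18 and the other genes given only a bound. It also limits Enpep, Mmp8, Mmp9, Adamtsl2, Adamtsl3 and Timp4, and this is not a full list.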
